A study of Mus musculus with 3 samples.

Results

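The heat shock chaperones described here are 10 of the 20586 genes in the deposited count table, taken by name. Of these, 7 act in the cytosol (Hspa8, Hsp90aa1, Hsp90ab1, Hspa1a, Hspa1b, Hsph1 and Dnajb1), 1 in the endoplasmic reticulum (Hspa5) and 2 in mitochondria (Hspd1 and Hspe1). Their transcripts were measured by droplet single-cell RNA sequencing of CD45+ cells from mouse thalamus, 4 h after an intracerebroventricular (i.c.v.) injection. CD45 is a surface protein of leukocytes, which include the microglia of the brain. There was 1 library for each of 3 groups. The WT vehicle library came from Cx3cr1-creER Heterozygous mice that received vehicle, and the WT IL-33 library from mice of that genotype that received IL-33. The cKO IL-33 library came from Cx3cr1-creER Heterozygous mice that also carried ST2 Flox homozygous alleles, and they too received IL-33. All 3 groups thus carried the recombinase, which the Cx3cr1 gene drives in microglia and related macrophages. ST2 is the receptor chain for IL-33, an alarmin cytokine of the IL-1 family. The sources used here do not give how the recombinase was induced, the age of the mice or how many mice each library holds. No vehicle library of the floxed genotype was analysed here. With 1 library a group there was no replicate check and no test, so every interval below is a 95% interval for counting error only.

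Chaperones bind unfolded or aggregating proteins and help them to fold. In the cytosol, J proteins such as Dnajb1 deliver clients to HSP70 proteins, HSP110 proteins such as Hsph1 exchange the nucleotide of HSP70, and some clients pass on to HSP90, which stabilises kinases and receptors. The HSP60 protein Hspd1 and its lid Hspe1 form the folding chamber of the mitochondrial matrix. Hspa8 and Hsp90ab1 are mostly constitutive forms, whereas Hspa1a, Hspa1b and, in part, Hsp90aa1, Hsph1 and Dnajb1 are induced by heat and other stress through heat shock factor 1 (Hsf1). Hspa5, also called BiP, is induced through the unfolded protein response.

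The letters that these regulators are known to read were looked for in the 250 bases before each RefSeq start site (GRCm38.p6), where 7 of the 10 genes had an entry. Hspa8, Hsp90aa1 and Hsp90ab1 had none. A heat shock element was searched as pairs of units, GAANNTTC or TTCNNGAA, which read the same on both strands and which 12.8% of 32851 promoters of that length hold, and as runs of 3 alternating units, which 0.466% hold. The endoplasmic reticulum stress response element was searched as CCAAT, 9 bases of any kind and CCACG on either strand, which 0.113% hold. The windows below show the matches in capitals, because they separate the mitochondrial pair, which share 1 match, from Hspa5, which has the other element. Each window is 30 bases, 5′ to 3′ on the strand of the gene named first.
Hspe1 and Hspd1, shared, chr1:55088053-55088082, plus strand: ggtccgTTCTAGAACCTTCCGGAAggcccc
Hsph1, chr5:149636351-149636380, minus strand: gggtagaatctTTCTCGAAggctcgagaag
Hspa1a, chr17:34972242-34972271, minus strand: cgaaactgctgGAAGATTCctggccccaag
Hspa1b, chr17:34959324-34959353, minus strand: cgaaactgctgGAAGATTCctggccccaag
Hspa5, chr2:34772020-34772049, plus strand: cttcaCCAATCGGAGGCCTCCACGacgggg

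Hspd1 and Hspe1 lie head to head on chromosome 1. The start sites at 55087932 (Hspd1, minus strand) and 55088148 (Hspe1, plus strand) are separated by 215 bases, of which 70.2% are G or C. The run of alternating heat shock units there lay 89 to 72 bases before the start of Hspe1 and 144 to 127 bases before that of Hspd1, counted on the strand of each gene. It held 3 overlapping pairs and 2 overlapping runs of 3 units. Annotation places further start sites of Hspd1 upstream of it. The 250 bases before the one listed at 55088243 held 0 heat shock pairs. The shared window thus also falls inside an annotated first exon of Hspd1, and the windows of Hsph1 and Hspa5 fall inside exons of those genes. The 2 start sites listed for Hsph1 put its pair 54 or 33 bases upstream, and Hspa1a and Hspa1b each had a pair 104 bases upstream. The 250 bases before Hspa1a and Hspa1b were identical at 247 positions. Neither Dnajb1 nor Hspa5 had a heat shock pair in these letters, and in Hspa5 the stress response element lay 65 to 47 bases before the start.

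In GENCODE on GRCm38, Hspa8 lies on chromosome 9 (40800984 to 40810087, plus strand), Hsp90aa1 on chromosome 12 (110690605 to 110702728, minus strand) and Hsp90ab1 on chromosome 17 (45567775 to 45573271, minus strand). Hspa1a (34969190 to 34972156) and Hspa1b (34956436 to 34959238) are neighbours on the minus strand of chromosome 17. Hsph1 lies on chromosome 5 (149614287 to 149636376, minus strand), Dnajb1 on chromosome 8 (83608193 to 83612653, plus strand) and Hspa5 on chromosome 2 (34771970 to 34777547, plus strand). Hspd1 (55077835 to 55088243, minus strand) and Hspe1 (55088132 to 55091307, plus strand) overlap at their annotated first exons. The sources used here do not say whether counting used strand, so reads in that overlap cannot be assigned with certainty. GENCODE names 5 processed pseudogenes of Hspd1 and 6 of Hspe1, and 0 of these are in the count table. The Hspa1a and Hspa1b transcripts were 92.9% identical over 2737 aligned bases, so their reads may be split or dropped between the 2 copies. Exons of Hspa1a also overlap those of Gm20481, a protein-coding gene on the opposite strand that is not in the count table.

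The libraries held 2709 (WT vehicle), 2202 (WT IL-33) and 2687 cells (cKO IL-33), with 12127214 to 18269042 unique molecular identifiers (UMIs) and medians of 5544, 3951 and 5119 UMIs per cell. A level in CPM is the number of UMIs of a gene per 1000000 UMIs, summed over all deposited cells of a library. Of 7598 cells, 7595 had UMIs of 3 or more of the 8 microglial markers, and all 8 were at 50 CPM or more in each library. The summed level of the microglial markers was 19626 CPM in WT vehicle, 12795 CPM in WT IL-33 and 20986 CPM in cKO IL-33. The 8 markers of border-associated macrophages summed to 80.4, 14.4 and 94.8 CPM in that order, with Lyve1 at 0 in WT IL-33. The 6 monocyte markers summed to 57.2, 13.7 and 32.9 CPM, with Ly6c2 and Chil3 at 0 in each library. Some other classes were higher in WT IL-33 than in WT vehicle. The 6 B cell markers summed to 55.0, 136.3 and 60.3 CPM, and the 6 of neurons and astrocytes to 154.5, 242.3 and 270.6 CPM. The part of these differences in the results below was not tested. Cells with the deposited call female numbered 8, 1107 and 2648, and with the call male 2701, 1095 and 39, so the libraries also differed in sex. Cells with Xist and Y-linked UMIs together numbered 305 (13.9%) in WT IL-33, 7 in WT vehicle and 3 in cKO IL-33. Without them the same 4 chaperones passed the 1.5-fold count given below, with log2 ratios of WT IL-33 to WT vehicle of 1.51 (Hspa8), 1.35 (Hsp90aa1), 1.06 (Hsp90ab1) and 1.24 (Hspd1). Of the cell barcodes, 2 occurred in more than 1 library.

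Hspa8, the constitutive HSP70 that assists folding, clathrin uncoating and chaperone-mediated autophagy, was at 493 CPM (483 to 503) in WT vehicle, 1397 CPM (1376 to 1418) in WT IL-33 and 507 CPM (497 to 518) in cKO IL-33. WT IL-33 stood apart and the other libraries lay close together. The ratio of WT IL-33 to WT vehicle was 2.84 (2.76 to 2.91), and cKO IL-33 was 2.76-fold lower than WT IL-33. Between cKO IL-33 and WT vehicle the ratio was 1.03 (0.999 to 1.06).

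Hsp90aa1, the more inducible cytosolic HSP90, was at 218 CPM (211 to 225) in WT vehicle, 531 CPM (518 to 544) in WT IL-33 and 182 CPM (176 to 188) in cKO IL-33. This was 2.44-fold higher in WT IL-33 than in WT vehicle (2.34 to 2.54) and 2.92-fold lower in cKO IL-33 than in WT IL-33. Hsp90ab1, the constitutive form, was at 890 CPM (877 to 904), 1811 CPM (1788 to 1836) and 721 CPM (709 to 734) in the same order. Its ratio of WT IL-33 to WT vehicle was 2.04 (1.99 to 2.08), and it was 2.51-fold lower in cKO IL-33. Both HSP90 genes were lowest in cKO IL-33, with ratios to WT vehicle of 0.835 for Hsp90aa1 and 0.810 (0.791 to 0.829) for Hsp90ab1.

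Hsph1, Dnajb1, Hspa1a and Hspa1b stayed under 50 CPM in each library. Hsph1, the HSP110 exchange factor, had 121 UMIs (6.62 CPM, 5.496 to 7.91) in WT vehicle, 330 UMIs (27.2 CPM, 24.4 to 30.3) in WT IL-33 and 149 UMIs (8.52 CPM, 7.21 to 10.01) in cKO IL-33. Its ratio of WT IL-33 to WT vehicle was 4.11 (3.33 to 5.10), and it was 3.19-fold lower in cKO IL-33 than in WT IL-33. Since it stayed under 50 CPM, it is not in the counts of genes past a fold below. Dnajb1, the J protein most tied to the heat shock response, was at 26.6 CPM (24.3 to 29.1), 32.3 CPM (29.2 to 35.7) and 28.1 CPM (25.7 to 30.8). Its ratio of WT IL-33 to WT vehicle was 1.22 (1.06 to 1.39), a log2 ratio of 0.27. With cells thinned to 3000 UMIs the log2 ratio of Dnajb1 was larger, at 0.61, and that of Hsph1 was 1.85. The 2 low members of the heat shock response thus differed in size of change.

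The inducible HSP70 copies were almost undetected. Hspa1a had 1 UMI in WT vehicle, 2 in WT IL-33 and 2 in cKO IL-33, and Hspa1b had 0, 3 and 4. Together they gave 12 UMIs in 11 of 7598 cells, 0.145% of cells (0.0723 to 0.259%). For Hspa1b in WT vehicle, 0 of 2709 cells had a UMI, which allows a share of cells with a UMI of up to 0.111% at a floor of 3 counts (exact upper bound 0.136%). This limits cells with a UMI and not cells that express the gene. No fold is given at these counts, and a difference between the libraries was not detectable at this depth.

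Hspa5, the HSP70 of the endoplasmic reticulum, was at 470 CPM (460 to 480) in WT vehicle, 696 CPM (681 to 711) in WT IL-33 and 514 CPM (503 to 525) in cKO IL-33. Its ratio of WT IL-33 to WT vehicle, 1.48 (1.44 to 1.53), was smaller than that of the HSP90 genes and just under the fold of 1.5 used for counts. It was 1.35-fold lower in cKO IL-33 than in WT IL-33, and the cKO IL-33 level was 1.09 times that of WT vehicle.

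The mitochondrial pair parted. Hspd1 (HSP60) was at 97.3 CPM (92.8 to 102) in WT vehicle, 229 CPM (221 to 238) in WT IL-33 and 91.9 CPM (87.5 to 96.5) in cKO IL-33, a ratio of 2.36 (2.22 to 2.504) between the WT libraries. Hspe1 (HSP10) was at 231 CPM (224 to 239), 203 CPM (195 to 211) and 199 CPM (192 to 205). Its ratio of WT IL-33 to WT vehicle was 0.878 (0.835 to 0.923), and cKO IL-33 was 1.02-fold lower than WT IL-33 (0.972 to 1.08), an interval that holds 1. Set against each other within a library, there were 0.420 Hspd1 UMIs per Hspe1 UMI (0.397 to 0.444) in WT vehicle, 1.13 (1.07 to 1.19) in WT IL-33 and 0.463 (0.436 to 0.492) in cKO IL-33. The promoter interval shown above, with its run of heat shock units, lies between 2 genes whose transcripts differed this much.

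**Figure D1:**
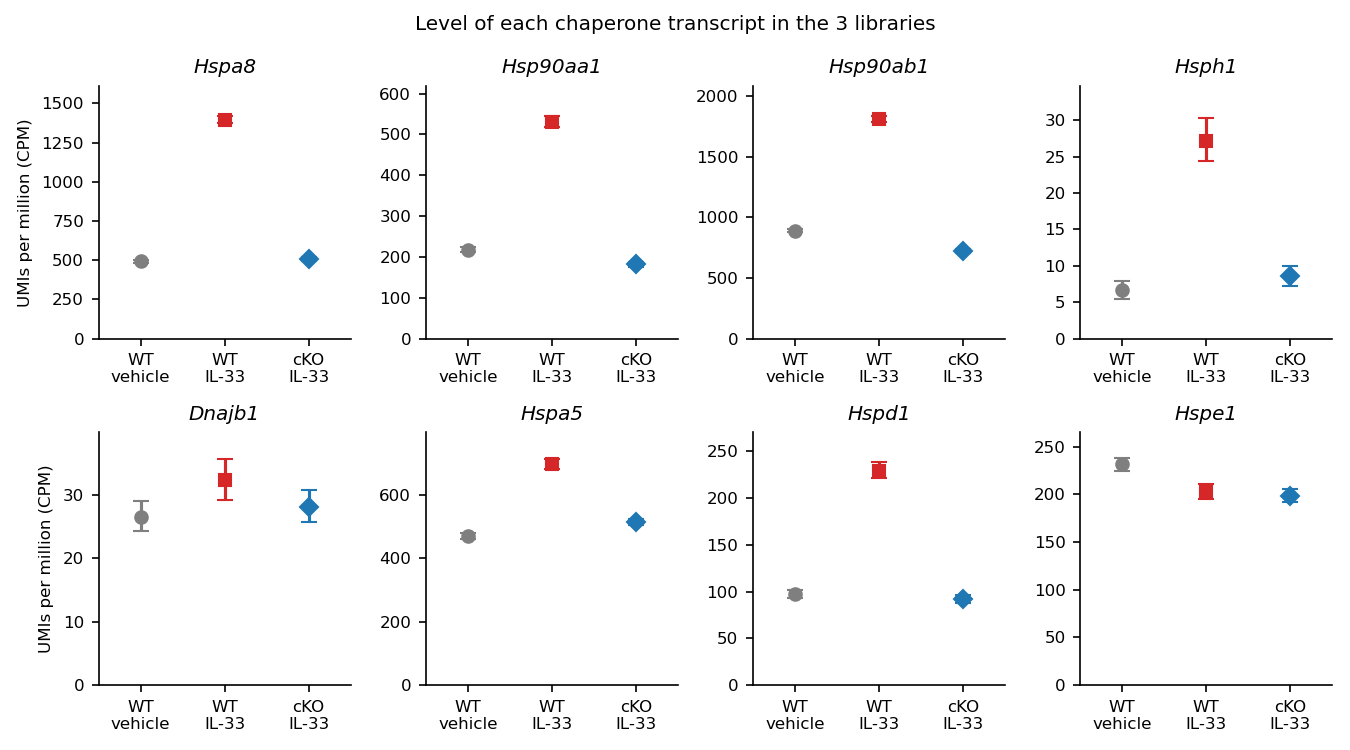
Level (CPM, vertical axis from 0, a scale for each gene) of 8 chaperones in the WT vehicle, WT IL-33 and cKO IL-33 libraries (horizontal axis). Bars are 95% Poisson intervals; Hspa8, both HSP90 genes, Hsph1, Hspa5 and Hspd1 stood higher in WT IL-33 than in the other libraries by more than these intervals, and Hspe1 and Dnajb1 did not. Hspa1a and Hspa1b, at 4 UMIs or fewer a library, are not drawn.

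A gene was counted as higher or lower when its CPM differed at least 1.5-fold and reached 50 CPM in either library, which 6 of the 10 chaperones did. Of these, 4 were higher in WT IL-33 than in WT vehicle (Hspa8, Hsp90aa1, Hsp90ab1 and Hspd1) and 0 were lower. Over 4104 genes at that level, 23.3% were higher and 18.8% lower. The median log2 ratio was 1.13 for the 6 chaperones and 0.03 for all genes. Those 4 genes were lower in cKO IL-33 than in WT IL-33 and 0 were higher, where 20.6% of 4151 genes were lower and 20.3% higher, with medians of -1.32 and -0.02. In cKO IL-33 against WT vehicle 0 of the 6 were past the fold in either direction, where 1.73% of 3585 genes were higher and 0.558% lower. The median of the 6 was -0.15, against 0.03 over all genes. The comparisons share libraries, so they are not independent of each other. The chaperones, like the lists below, were chosen with earlier results of these data known. The counts and medians therefore describe these genes and are no test.

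Within cells of 1 sex call the 4 genes were counted again. Among male-called cells, 2701 in WT vehicle and 1095 in WT IL-33, the log2 ratios were 1.64 (Hspa8), 1.53 (Hsp90aa1), 1.17 (Hsp90ab1) and 1.39 (Hspd1). Among female-called cells without Y-linked UMIs, 802 in WT IL-33 and 2645 in cKO IL-33, the log2 ratios of cKO IL-33 to WT IL-33 were -1.30, -1.36, -1.21 and -1.12 in that order. For cKO IL-33 against WT vehicle, sex and group cannot be told apart.

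**Figure D2:**
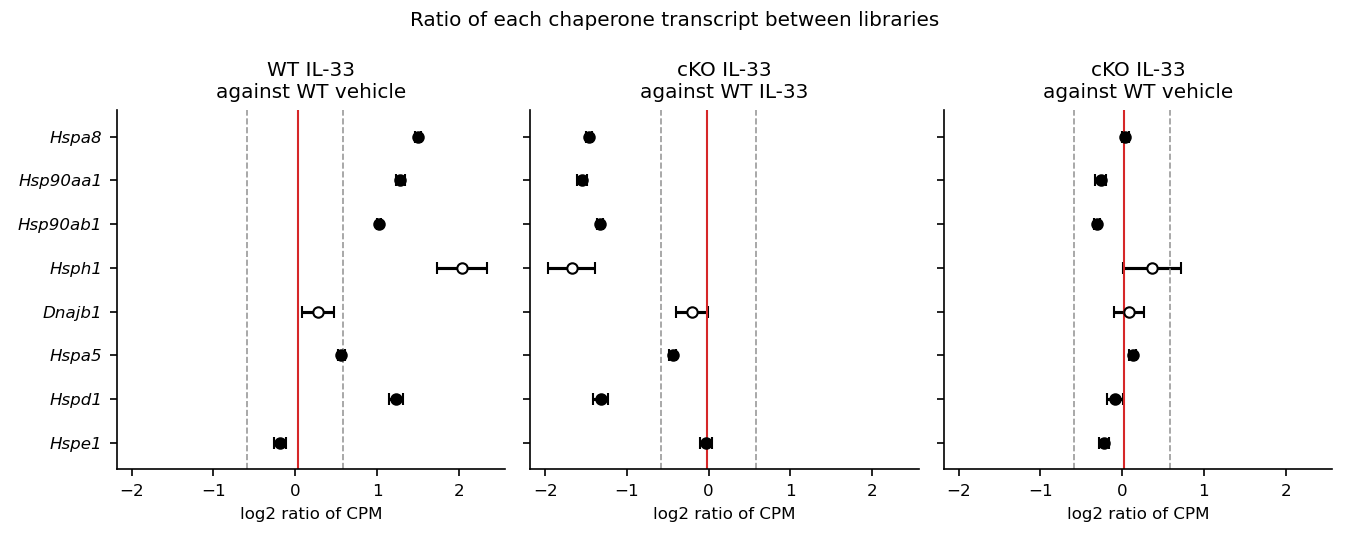
Log2 ratio of CPM (horizontal axis) of 8 chaperones in the 3 comparisons between libraries, with 95% counting intervals. Filled points reached 50 CPM in either library and open points did not; the red line is the median of all genes and dashed lines mark 1.5-fold. In the panel of cKO IL-33 against WT vehicle every filled point lies between the dashed lines.

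The cells carry deposited cluster numbers without names. Most WT IL-33 cells (1815) lay in cluster 1, which held 20 WT vehicle and 35 cKO IL-33 cells, so cluster 1 could not be compared between libraries. Clusters 0, 2, 3 and 5 held 144, 102, 67 and 59 WT IL-33 cells against 1327, 515, 512 and 88 of WT vehicle and 1374, 721, 349 and 86 of cKO IL-33. The clusters were formed from transcripts of these same cells, and the chaperones may have been among the genes used. Levels of the chaperones by cluster are therefore descriptions.

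In cluster 3, the difference in Hspa8 was present inside the cluster, with 564 CPM (539 to 589) in WT vehicle, 1360 CPM (1225 to 1506) in WT IL-33 and 607 CPM (575 to 640) in cKO IL-33. In cluster 5 it was 570 CPM (516 to 629), 1344 CPM (1224 to 1473) and 629 CPM (567 to 695). In cluster 0 the 3 levels lay closer, at 478, 708 and 511 CPM, and in cluster 2 closer still, at 423, 570 and 437 CPM. Inside WT IL-33, cluster 1 was at 1470 CPM and cluster 0 at 708 CPM, a ratio of 2.08 (1.87 to 2.31).

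Hsp90aa1 followed the same order of clusters. Its ratio of WT IL-33 to WT vehicle was 2.71 (2.26 to 3.23) in cluster 3, 2.55 (2.01 to 3.24) in cluster 5, 1.41 (1.18 to 1.68) in cluster 0 and 1.08 (0.847 to 1.36) in cluster 2. For Hsp90ab1 the ratios were 1.93 (1.76 to 2.12), 1.73 (1.54 to 1.95), 1.19 (1.08 to 1.30) and 0.925 (0.817 to 1.04). In cluster 2 the intervals of both HSP90 genes held 1. In WT IL-33, Hsph1 had 298 UMIs in cluster 1 (28.5 CPM) and 4 to 10 UMIs in each of clusters 0, 2, 3 and 5.

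Hspa5 was past 1.5-fold in cluster 3, with 440 CPM (418 to 462) in WT vehicle against 979 CPM (865 to 1104) in WT IL-33, and in cluster 5, with 499 against 821 CPM. In clusters 0 and 2 its ratios were 1.05 (0.921 to 1.19) and 1.04 (0.905 to 1.19). In cKO IL-33 Hspa5 was at 579 CPM (548 to 611) in cluster 3 and 637 CPM (575 to 703) in cluster 5. These levels lay between those of the other libraries.

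Hspd1 had a ratio of WT IL-33 to WT vehicle of 2.37 (1.80 to 3.07) in cluster 3, 1.73 (1.21 to 2.47) in cluster 5, 1.65 (1.28 to 2.10) in cluster 0 and 1.17 (0.856 to 1.58) in cluster 2. Hspe1 was lower in WT IL-33 in cluster 2, at 103 CPM (75.1 to 138) against 185 CPM (171 to 200), and in cluster 3, at 165 CPM (120 to 221) against 257 CPM (240 to 274). In clusters 0 and 5 the Hspe1 ratios were 1.01 (0.837 to 1.21) and 0.922 (0.679 to 1.24). The Hspd1 UMIs per Hspe1 UMI were higher in WT IL-33 in each of these clusters, from 0.566 against 0.346 in cluster 0 to 1.51 (1.02 to 2.25) against 0.411 (0.363 to 0.464) in cluster 3. In cluster 5, at 0.924 (0.642 to 1.33) against 0.493 (0.367 to 0.658), the intervals overlapped. In cluster 2 the WT IL-33 value rested on 51 Hspd1 and 45 Hspe1 UMIs.

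**Figure D3:**
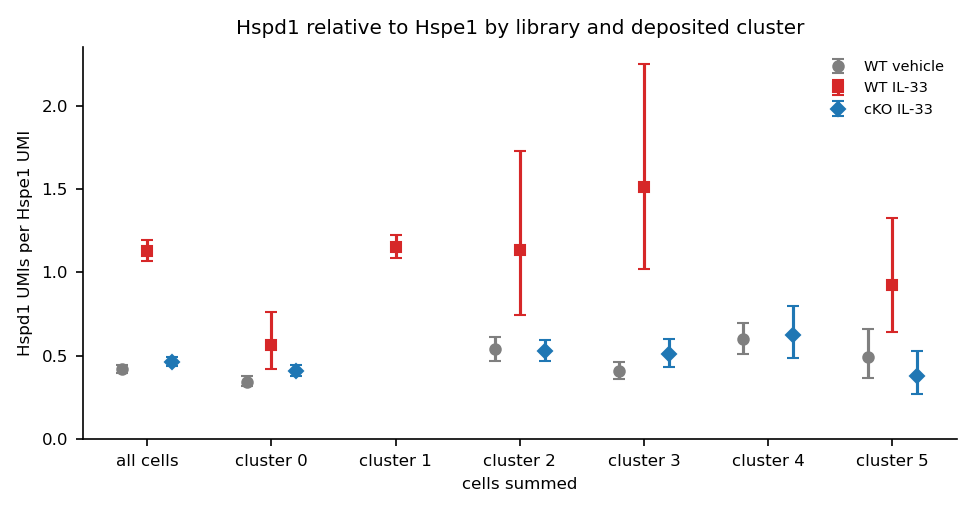
Hspd1 UMIs per Hspe1 UMI (vertical axis from 0) in all cells and in each deposited cluster with 50 cells or more (horizontal axis), for the 3 libraries, with 95% counting intervals. Over all cells WT IL-33 sits at 1.13, above 0.420 in WT vehicle and 0.463 in cKO IL-33.

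Of the 6 chaperones at 50 CPM or more, those at least 1.5-fold apart between WT IL-33 and WT vehicle numbered 1 in cluster 0 (Hspd1 higher), 1 in cluster 2 (Hspe1 lower), 6 in cluster 3 (Hspe1 lower, the others higher) and 5 in cluster 5 (all higher, without Hspe1). The share of all genes apart by that fold was 20.7%, 19%, 42% and 48.7% in those clusters, so the counts of clusters 3 and 5 stand beside large shares of all genes. Between cKO IL-33 and WT IL-33 there were 2 in cluster 0 (Hsp90aa1 and Hspd1 lower), 1 in cluster 2 (Hspe1 higher), 5 in cluster 3 (all lower) and 4 in cluster 5 (all lower). The shares of all genes were 14.7%, 12.7%, 39.4% and 46.8%. Between cKO IL-33 and WT vehicle there were 0 in clusters 0, 2, 3, 4 and 5, where 1.98%, 2.58%, 2.16%, 4.14% and 10.3% of all genes were apart.

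**Figure D4:**
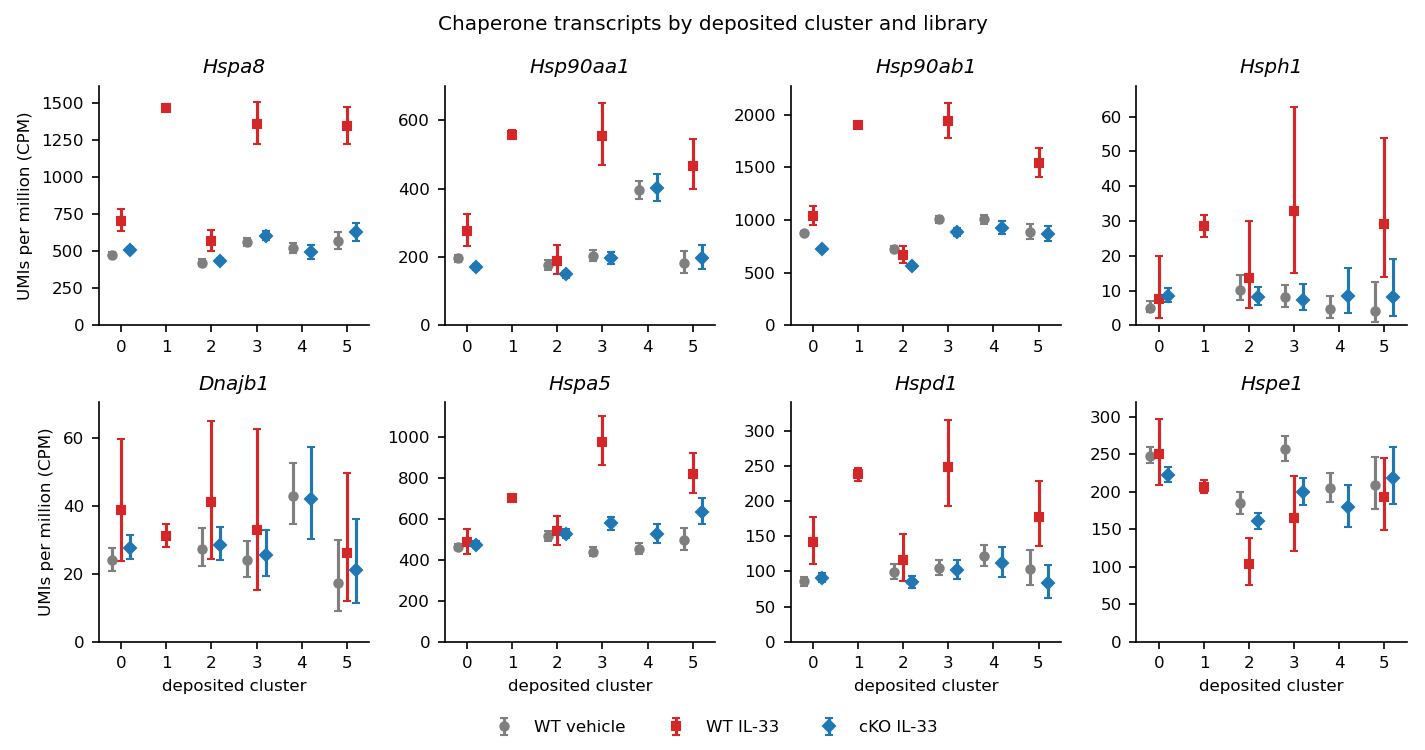
Level (CPM, vertical axis from 0, a scale for each gene) of 8 chaperones by deposited cluster (horizontal axis) and library, for sums of 50 cells or more, with 95% Poisson intervals. The WT IL-33 points of Hspa8, Hsp90aa1, Hsp90ab1 and Hspd1 stand high in clusters 1, 3 and 5 and nearer to the other libraries in clusters 0 and 2; Hsp90aa1 is also high in cluster 4.

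Cluster 4, with 247 WT vehicle, 122 cKO IL-33 and 15 WT IL-33 cells, was the one in which 90.1% of cells carried a deposited S or G2M call. There Hsp90aa1 was at 396 CPM (370 to 423) in WT vehicle and 402 CPM (363 to 444) in cKO IL-33, above its levels of 176 to 204 CPM and 150 to 198 CPM in the other clusters of these libraries. Dnajb1 was at 43.0 CPM (34.7 to 52.7) and 42.2 CPM (30.2 to 57.5) there. By phase call, Hsp90aa1 in WT vehicle was at 186 CPM in G1, 232 CPM in S and 300.2 CPM in G2M cells, and in cKO IL-33 at 166, 184 and 281 CPM. In WT IL-33 the 3 phases did not differ in that way, at 530, 537 and 522 CPM. That library held 280 G2M-called cells but 15 cells of cluster 4, so its G2M sum rests mostly on other clusters. Whether Hsp90aa1 follows phase differently there was not tested. Dnajb1 was higher in G2M than in G1 cells of WT vehicle (40.3 against 24.1 CPM) and WT IL-33 (53.3 against 28.9 CPM), with 34.9 against 28.4 CPM in cKO IL-33. Hspa8, at 474, 526 and 491 CPM in G1, S and G2M cells of WT vehicle, showed no such order, and in WT IL-33 it was at 1393, 1404 and 1405 CPM. Phase calls rest on other transcripts of the same cells and are no measure of cycling on their own.

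More cells of WT IL-33 than of the other libraries had a UMI of Hspa8, Hspd1 or Hsph1. Such a share rises with the mean level, so it does not show that the rise was even over cells. By cluster, Hspa8 in WT IL-33 was at 1470 CPM in cluster 1 and at 708 and 570 CPM in clusters 0 and 2. With every cell thinned to 3000 UMIs, Hspa8 was detected in 73.8% of WT vehicle cells (72.1 to 75.5%), 95.7% of WT IL-33 cells (94.6 to 96.6%) and 75.4% of cKO IL-33 cells (73.7 to 77.04%). Thinning left out 77, 353 and 86 cells, and the shares of unthinned cells were 88.6%, 96.6% and 89.5%. For Hspd1 the thinned shares were 23.8% (22.2 to 25.5%), 46.5% (44.2 to 48.8%) and 22.5% (20.9 to 24.2%), and the unthinned shares 41.8%, 58.3% and 39.1%. For Hsph1 the thinned shares were 2.05%, 8.004% and 2.54%, and the unthinned shares 3.95%, 12.7% and 4.76%. Since these genes are active in most cell types, no cell type gave the background from free RNA. The tenth of cells with most Hspa8 UMIs held 29.2%, 29.95% and 29.8% of them in WT vehicle, WT IL-33 and cKO IL-33 with cells unthinned. At 3000 UMIs a cell, the variance of Hspa8 UMIs over cells divided by their mean (Fano factor) was 1.16, 1.71 and 1.18, highest in WT IL-33, where the mean was also highest. For Hsp90aa1 the share of UMIs in such top cells, unthinned, was 38.2%, 31.9% and 39.1%, lowest in WT IL-33.

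In cells of like depth the pattern held. Among cells of 2100 to 3500 UMIs, Hspa8 was at 418 CPM in WT vehicle, 1276 CPM in WT IL-33 and 519 CPM in cKO IL-33, and among cells over 7000 UMIs at 512, 1382 and 510 CPM. For Hspd1 these were 95.6, 220 and 81.6 CPM in the shallow cells and 100.1, 223 and 94.0 CPM in the deep ones.

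Other genes of the chaperone network were read from lists of 136 genes in all, which also hold the 10 chaperones. Among HSP90 and its co-chaperones, 9 of 11 genes at 50 CPM or more were higher in WT IL-33 than in WT vehicle. Of the 11, 0 were lower and the median log2 ratio was 0.83, beside 23.3% of all genes higher. Without Hsp90aa1 and Hsp90ab1, 7 of 9 were higher, with a median of 0.73. In these lists, as in the share of all genes, a gene could reach 50 CPM through WT IL-33 alone. In cKO IL-33 against WT vehicle, 7 genes of the HSP90 list reached that level, and 5 without Hsp90aa1 and Hsp90ab1. The rest of the 9 reached it in WT IL-33 alone, so they could be counted only as higher there. The genes higher in WT IL-33 included Stip1 (Hop), which links HSP70 to HSP90. Stip1 was at 31.0 CPM in WT vehicle, 76.3 CPM in WT IL-33 and 29.1 CPM in cKO IL-33. Ppid, a co-chaperone with a prolyl isomerase domain, was 2.03-fold higher (1.85 to 2.23) and Ptges3 (p23), which binds the closed form of HSP90, 1.83-fold higher (1.71 to 1.95). Fkbp5, an HSP90 co-chaperone that acts on the glucocorticoid receptor and is induced by glucocorticoids, was singled out after its values were seen. It was at 121 CPM in WT vehicle, 159 CPM in WT IL-33 and 351 CPM in cKO IL-33, and was the 1 gene of these lists past 1.5-fold in cKO IL-33 against WT vehicle.

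Of 3 genes of the list of cytosolic HSP70 and HSP110 at that level, Hspa8 and Hspa4, another HSP110, were higher, Hspa4 by 1.54-fold (1.45 to 1.63), and Hspa13 had a ratio of 1.48. Hspa13 is an HSP70 of the endoplasmic reticulum, although the list counts it with the cytosolic genes. Of 7 J proteins 3 were higher, namely Dnaja1 (1.99, 1.89 to 2.10), Dnajc2 (1.73) and Dnaja2 (1.62). Dnaja1 is a main J protein partner of Hspa8 and Dnajc2 acts at the ribosome. Of 5 nucleotide exchange factors and partners 2 were higher, Stub1, the ubiquitin ligase CHIP, at 1.54-fold and Bag5 at 1.52-fold, and Bag1 had a ratio of 0.762. Of 11 genes of the chaperonin TRiC, which folds actin and tubulin, and of prefoldin 4 were higher, among them Cct3 (2.34, 2.19 to 2.49), Cct6a (2.21) and Cct8 (1.94). The median log2 ratio was 0.62 for the HSP70 and HSP110 list and 0.22 for J proteins. It was 0.07 for exchange factors and partners and 0.45 for TRiC and prefoldin. Over all genes the median was 0.03, with 23.3% higher and 18.8% lower. Of the 10 small heat shock proteins 0 reached 50 CPM in these libraries. Hsf1 itself was at 22.4 CPM in WT vehicle, 51.9 CPM in WT IL-33 and 23.2 CPM in cKO IL-33, a ratio of 2.31 (2.04 to 2.62) between the WT libraries, and Hsbp1, which binds heat shock factors, had a ratio of 0.937.

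Among 14 chaperones and folding enzymes of the endoplasmic reticulum at 50 CPM or more, 0 were past 1.5-fold in WT IL-33 against WT vehicle, with a median log2 ratio of 0.04. Hspa5 had the highest ratio of these genes. Over all genes 23.3% were higher and 18.8% lower. Sdf2l1 had a ratio of 0.672 (0.613 to 0.736), Pdia4 of 0.744 and Dnajb11, a partner of Hspa5, of 1.32. Among regulators of the unfolded protein response 3 of 4 were higher, beside 23.3% of all genes. Herpud1, which acts in the degradation of endoplasmic reticulum proteins, was at 116 CPM in WT vehicle, 1050 CPM in WT IL-33 and 138 CPM in cKO IL-33. Atf4 was 2.46-fold higher (2.31 to 2.63) and Atf6 2.13-fold (1.97 to 2.31).

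Of 7 mitochondrial chaperones and proteases 4 were higher, beside 23.3% of all genes, with a median log2 ratio of 0.79. Besides Hspd1 these were Hspa9, the HSP70 of the mitochondrial matrix (1.82, 1.69 to 1.96), its exchange factor Grpel1 (1.74, 1.58 to 1.92) and Clpp, a matrix protease (2.54, 2.25 to 2.87). Hspe1 had the lowest ratio of the 7. Without Hspd1 and Hspe1, 3 of 5 were higher, with a median of 0.79. In cKO IL-33 against WT vehicle, 4 genes of this list reached 50 CPM, and 2 without Hspd1 and Hspe1. The rest of the 5 reached it in WT IL-33 alone, so they could be counted only as higher there. Between cKO IL-33 and WT IL-33, such genes of any list could be counted only as lower in cKO IL-33. Genes lower in cKO IL-33 than in WT IL-33 numbered 7 of 11 for HSP90 and co-chaperones, 3 of 7 for J proteins, 5 of 11 for TRiC and prefoldin, 4 of 7 for mitochondrial genes and 0 of 14 for the endoplasmic reticulum, beside 20.6% of all genes lower. Fkbp5 of the HSP90 list and Pdia4 of the endoplasmic reticulum list were higher, by 2.21-fold (2.10 to 2.32) and 1.52-fold (1.40 to 1.65), beside 20.3% of all genes higher. The median log2 ratios of these lists were -0.80, -0.12, -0.53, -0.70 and -0.12 in that order, and -0.02 over all genes. Without the 10 chaperones, 5 of 9 genes of the HSP90 list were lower, with a median of -0.63. For the mitochondrial list it was 3 of 5, with a median of -0.70. For the endoplasmic reticulum it was 0 of 13, with a median of -0.04.

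Heat shock and immediate early genes can also be induced while tissue is dissociated, and cells here were isolated on ice or at 4 °C with a homogenizer and a 22% Percoll gradient. Of 11 genes of an immediate early list at 50 CPM or more, 8 were higher in WT IL-33 than in WT vehicle. Of the 11, 0 were lower, beside 23.3% of all genes higher and 18.8% lower. Ier2, Ier3, Dusp1 and Nfkbiz reached 50 CPM in WT IL-33 alone, so they could be counted only as higher there. Nfkbiz was at 13.6, 897 and 14.2 CPM in WT vehicle, WT IL-33 and cKO IL-33, Dusp1 at 7.99, 56.9 and 8.01 CPM and Ier3 at 23.9, 104 and 18.7 CPM. Fos, named after its values were seen, was at 0.821, 32.7 and 1.55 CPM. Hspa1a and Hspa1b were near 0 in all 3 libraries. Reads split between the copies would still be in their sum of 12 UMIs, but reads dropped for matching both would not. How many were dropped was not checked, so these counts alone do not show whether the copies were induced. The part of isolation in the chaperone levels was not tested.

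**Figure D5:**
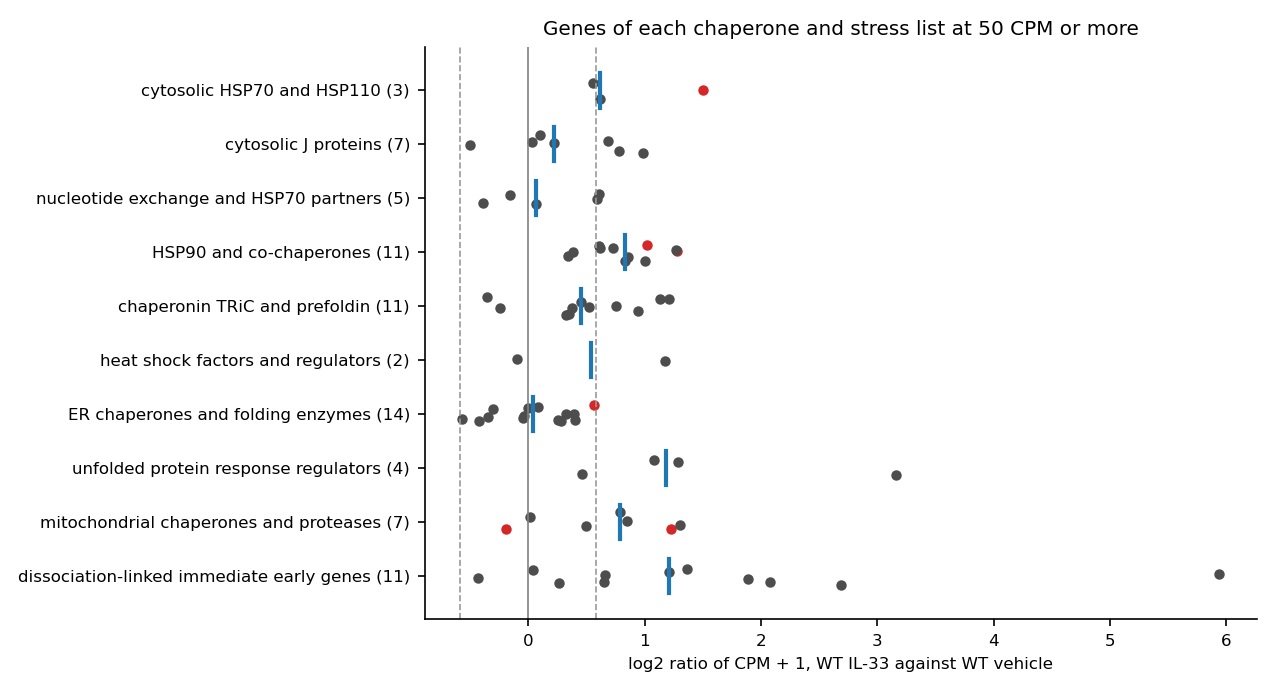
Log2 ratio of CPM + 1 between WT IL-33 and WT vehicle (horizontal axis) for each gene at 50 CPM or more of 10 lists (rows, number of genes in parentheses). Red points are the chaperones described here, blue bars are list medians and dashed lines mark 1.5-fold; the co-chaperones of HSP90 lie mostly to the right of the dashed line and the folding enzymes of the endoplasmic reticulum between the lines.

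Across 15 sums of a library and a cluster with 50 cells or more, the Pearson r of log2(CPM + 1) was 0.92 between Hspa8 and Hsp90ab1, 0.91 between Hspa8 and Hspd1 and 0.79 between Hspa8 and Hsp90aa1. It was -0.14 between Hspd1 and Hspe1 and 0.05 between Hspa8 and Dnajb1. The sums share libraries and depth, and 5 of them are of WT IL-33, so r describes these sums and carries no p. Of 5328 genes searched, those most like Hspa8 were H2-K1 (0.98), Bcl2a1b (0.97) and Cd74 (0.97). Those most like Hsp90aa1 were Kdelr2 (0.97), Tpm4 (0.97) and Ddx39 (0.96), and those most like Hsp90ab1 were Eef1g (0.97), Rac2 (0.96) and Fth1 (0.95). Hspd1 was most like Eif4a1 (0.98), Morf4l2 (0.98) and Eif2s1 (0.97). Hspa5 was most like Degs1 (0.89), Pdia6 (0.89) and Snhg12 (0.89), and Hspe1 like Tmem160 (0.89), Hsbp1 (0.87) and Sdhb (0.84). The low-count genes Hsph1 (Vti1a, Gnl3 and Fgr, 0.95 to 0.97) and Dnajb1 (Cdc123, Nrf1 and Pgrmc2, 0.86 to 0.90) carry more counting error in these values.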

How the data were processed

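The values analysed are UMI counts as deposited, for 20586 genes and 7598 cells, and a second deposited table gives library, sex call, cluster and phase. It also gives each cell's mitochondrial and ribosomal percent of UMIs, per the file headers (medians 2.27 to 2.99% and 10.6 to 15.02% over libraries). Per the submitters' processing notes, the tools were Cell Ranger 5.0 and Seurat 4.0.1 and the builds GRCm38 and mm10. The sources used here do not say how cells were filtered or doublets treated, and no doublet caller was run.

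UMIs were summed per library, and per library and deposited cluster, and scaled to CPM. Intervals at 95% are exact (Poisson for levels, conditional binomial for ratios, binomial for shares). With 1 library a group no p-value was computed. A gene was counted at 1.5-fold or more with 50 CPM in either sum. Log2 ratios used a pseudocount of 1 CPM. Named genes were the 10 chaperones, of each of 11 lists up to 3 further genes with the largest absolute log2 ratio of WT IL-33 to WT vehicle among those at 50 CPM or more in either library, and for each chaperone the 3 genes of highest correlation. For Hspa1a and Hspa1b the last are left out, as their counts are near 0, and co-detection with Hspa1a was not computed for the same reason. The chaperones and lists were chosen with earlier results of these data known. Sums, intervals and motif searches were made in Python 3.11.15 with numpy 2.4.6 and scipy 1.17.1, and the counting steps were tested on simulated sums.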

Additional observations from a re-analysis of the deposited data

How the results depend on the processing

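The limits here are 1 library a group, sex calls that differ between libraries, and few WT IL-33 cells outside cluster 1. With no minimum level, 7 chaperones in place of 4 passed 1.5-fold upward between WT vehicle and WT IL-33, since Hsph1, Hspa1a and Hspa1b joined. Hsph1 also joined the genes lower in cKO IL-33 than in WT IL-33 (5 in place of 4). In cKO IL-33 against WT vehicle it gave 2 in place of 0, Hspa1a and Hspa1b at 1 to 4 UMIs or none. The counts of 4 held under the other alternatives run for them, which changed the minimum to 200 CPM, scaling, weighting, depth, phase, sex call or cells with markers of other classes, except that Hspa5 joined Hspa8, Hsp90aa1, Hsp90ab1 and Hspd1 (5 higher) with median of ratios scaling, cells over 5000 UMIs, G1-called cells and cells without other classes' markers. Over 11 alternatives the log2 ratio of WT IL-33 to WT vehicle ran from 1.42 to 1.64 for Hspa8, 1.12 to 1.66 for Hsp90aa1, 0.94 to 1.23 for Hsp90ab1, 1.14 to 1.39 for Hspd1, 1.16 to 2.06 for Hsph1, 0.48 to 0.63 for Hspa5 and -0.27 to -0.06 for Hspe1. The value of Hsph1 was above that of Hspa8 except in cells with at most 5000 UMIs (1.48 against 1.60) and with a pseudocount of 10 CPM (1.16 against 1.49). For Dnajb1 the log2 ratio of WT IL-33 to WT vehicle ran from 0.17 to 0.61, highest in cells thinned to 3000 UMIs. A minimum of 200 CPM moved the median of all genes to -0.11. No paired analysis was possible because each group has 1 library.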
